A study of Mus musculus with 32 samples.

Results

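The axon guidance genes measured here are the semaphorins, plexins and neuropilins together with the Slits, Robos, netrins and Unc5 receptors. They were taken as every gene symbol of these families on an Illumina mouse bead array with a probe detected (detection p under 0.01) in 1 or more of 32 arrays. The rule gave 30 genes with 49 probes, out of 11484 named genes detected in the series, and a gene with several probes is described by its brightest, whose detection calls are the ones given. Of the 30, 13 were semaphorins, 5 plexins, 2 neuropilins, 2 Slits, 3 Robos, 2 netrins and 3 Unc5 genes, among them Unc5cl, which shares a name and a domain with the netrin receptors but is not known to bind netrin.

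Semaphorins, Slits and netrins are secreted or membrane-bound cues first known for steering growing axons. Plexins, often with a neuropilin as co-receptor, bind semaphorins, Robos bind Slits, and Unc5 proteins bind netrins, and their signals act on the cytoskeleton and on adhesion. In the intestine such cues are made and read by epithelial cells, blood vessels and other stromal cells, and Robo4 and Plxnd1 are best known from endothelium.

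The series set intestinal crypts against adenomas in C57BL/6J mice aged 120 days. Crypts, isolated with EDTA, came from wt mice, wt mice with villin.Cre/+, Pygo1/2 DKO mice (Pygo1-/-, Pygo2 LoxP/LoxP, villin.Cre/+) and Bcl9/B9l DKO mice (LoxP/LoxP at both Bcl9 and B9l, again with villin.Cre/+), with 3 arrays each. Adenomas were excised from ApcMin/+ mice (9 arrays), which carry a truncating allele of the tumour suppressor Apc, and from mice with ApcMin/+ combined with the Pygo1/2 DKO alleles (5 arrays), the Bcl9/B9l DKO alleles (3 arrays) or both sets (QKO, 3 arrays). In Wnt signalling, Bcl9 proteins bind both β-catenin and Pygo proteins. The villin promoter drives Cre in the intestinal epithelium, so the floxed genes stayed intact in stroma, whereas Pygo1 was lost in every cell, and the ApcMin control adenomas carried no villin.Cre, so that Cre and the deletions cannot be told apart in adenomas. Per the methods a sample typically pools RNA extractions of 1 mouse, and since nothing ties the arrays of a group to separate mice, a p-value here speaks for the spread among these samples alone, which may be technical. ApcMin replicates 4, 6 and 8 and the QKO arrays formed batch 2, and the other 26 arrays batch 1.

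Mean signal ran from 307 to 445 per array in batch 1 and from 156 to 217 in batch 2, with 12913 to 16319 and 14081 to 14666 probes detected. Pygo2 fell by 1.14 ± 0.15 (log2 difference ± SE, adjusted p = 0.00188) in Pygo1/2 DKO adenomas and by 1.61 ± 0.20 (adjusted p = 0.028) in Pygo1/2 DKO crypts, whereas in QKO adenomas its difference of -0.36 ± 0.19 missed the threshold (adjusted p = 0.292), and no probe of Bcl9 or Bcl9l was lower in Bcl9/B9l DKO adenomas, where the part of each transcript the probes read is not known. Adjusted p-values come from limma fits with Benjamini-Hochberg adjustment across every probe tested, and levels are log2 normalized intensities. Crypts and adenomas also differed in cell content. Markers of endothelium, summed over the 10 measured of 12 on the linear scale, lay between 185 and 189 in wt crypts and between 2410 and 4000 in batch 1 ApcMin adenomas, and fibroblast and matrix markers (10 of 10) between 126 and 191 and between 8990 and 14600. Pecam1, Cdh5, Col1a1 and Col3a1 were detected in no crypt array. Epithelial markers (10 of 10) summed to between 63400 and 66900 in wt crypts and between 59800 and 70500 in those adenomas, with 2 higher and 3 lower. Enteroendocrine markers, 6 of 7 of them lower, summed to between 10100 and 11300 in wt crypts and between 2520 and 4220 in those adenomas, and Paneth markers, 1 of 4 lower, to between 45500 and 51800 and between 15400 and 34000. Whether these shifts had a part in the falls of Unc5b, Sema4a and Sema4g described below was not tested. In such bulk samples, fewer cells of a type and less RNA per cell cannot be told apart.

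The detection calls of the guidance genes differed between the 12 crypt and the 20 adenoma arrays. The same counts were not taken over all genes, so these are not read as particular to guidance genes. 10 were detected in all 32 arrays (Plxna2, Plxnb2, Sema3b, Sema4a, Sema4b, Sema4g, Sema5a, Sema6d, Sema7a and Unc5b). These are mostly semaphorins, with a pair of plexins and a netrin receptor. 12 were detected in no crypt array, and of these Plxnd1, Robo4, Sema3f and Slit2 were detected in all 20 adenoma arrays. Dimmer probes of Robo1 and Robo4 were detected in crypts, that of Robo4 in 1 Pygo1/2 DKO array. Robo1 was detected in 19 of the 20, missing only in Bcl9/B9l DKO adenomas 1. Slit3 was detected in all 14 adenoma arrays of batch 1 and in none of the 6 of batch 2. Robo2 and Sema4f were each detected in 1 crypt array and in no adenoma array by the probe used. Another Sema4f probe was detected in 1 ApcMin array of each batch and in 1 Pygo1/2 DKO adenoma array. A further Sema4f probe was detected in 1 batch 1 ApcMin array. Ntn5, Sema3c, Unc5a and Plxnc1 were detected in 1 or 2 arrays each, too few for their levels to be read.

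**Figure D1:**
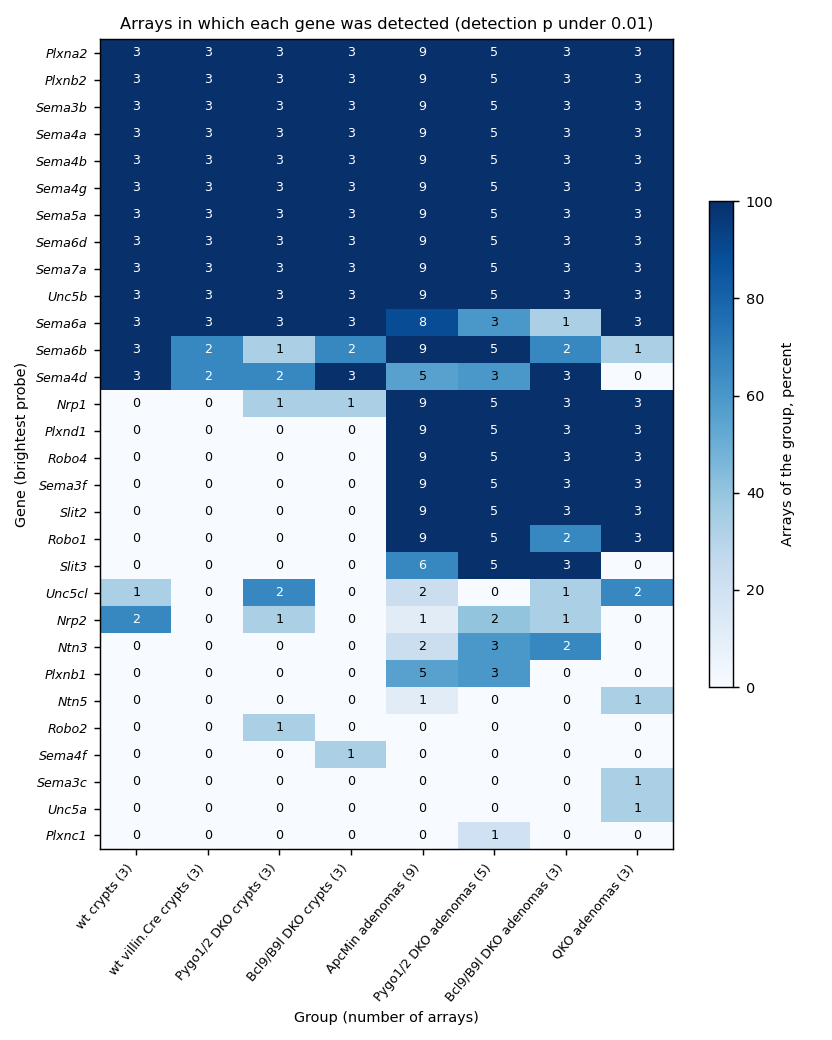
Number of arrays in which each of the 30 genes was detected, by group (columns, with the number of arrays) and gene (rows), with colour giving the percent of the group's arrays. The 10 genes at the top were detected in all 32 arrays, and the block in the middle holds genes detected in adenomas and in few or no crypt arrays.

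The first comparison asked how ApcMin adenomas differ from wt crypts. Of 25 guidance genes tested, 9 were higher and 3 lower in adenomas at an adjusted p under 0.01, against 18.4% of all 19002 probes higher and 20.0% lower. The risers included both Slits, both tested Robos, the co-receptor Nrp1 and the receptor Plxnd1, and among the semaphorins Sema3f, Sema5a and Sema7a. The genes that fell were Sema4a, Sema4g and Unc5b. The median log2 difference was 0.34 over these genes and -0.08 over all probes.

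Sema3f, a secreted semaphorin that signals through neuropilins and plexins, lies at chr9:107681499-107710475 (GRCm38.p6). Its level was 5.42, 4.95 and 4.86 in the wt crypts, 9.55, 9.90 and 10.16 (lowest, median and highest) in the 6 batch 1 ApcMin adenomas and 10.65, 10.69 and 10.45 in the 3 of batch 2. Every adenoma array lay above every crypt array. Since no wt crypt array detected Sema3f, its fold is a bound, the mean of all 9 adenoma arrays set against the higher of the probe's own value and the lowest detected signal in each crypt array, and it was at least 22.2-fold higher (adjusted p = 1.12e-10). The second Sema3f probe gave at least 14.05-fold (adjusted p = 3.68e-11). For both probes the batch 2 adenomas were the brighter, and all wt crypts were in batch 1. Batch 1 adenomas alone would give lower bounds.

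Robo1, Robo4, Slit2 and Slit3 were all called higher. Robo1, at chr16:72027518-73047491, had levels of 5.00, 4.98 and 4.47 in wt crypts, and 7.89, 8.65 and 8.87 (lowest, median and highest) in batch 1 and 9.13, 9.73 and 9.40 in batch 2 ApcMin adenomas, at least 9.05-fold higher over all 9 arrays (adjusted p = 1.8e-08). Its batch 2 adenomas were the brighter, so batch 1 adenomas alone would give a lower bound. The groups did not overlap. A second, dimmer Robo1 probe, detected in all 3 wt crypts at 5.78, 5.75 and 5.74 and in 4 of the 6 batch 1 adenomas, gave -0.35 ± 0.12 (adjusted p = 0.0264), so that the probes of Robo1 disagreed and its values below rest on 1 probe. Robo4 (chr9:37401902-37414023) had levels of 4.48, 4.41 and 4.45 in wt crypts against 8.31, 8.77 and 9.18 (lowest, median and highest) in batch 1 and 7.51, 6.93 and 6.96 in batch 2, at least 6.01-fold higher over all 9 arrays and 8.83-fold over batch 1 alone (adjusted p = 1.88e-09). Here the batch 2 adenomas lay below those of batch 1, unlike Robo1. Slit2, a secreted Robo ligand, rose at least 2.56-fold (adjusted p = 8.62e-08), from 4.73, 4.99 and 5.02 in crypts to 6.91, 7.19 and 7.49 in batch 1 and 6.78, 6.65 and 6.47 in batch 2. Slit3 rose at least 1.20-fold over all 9 arrays and 1.80-fold over batch 1 alone (adjusted p = 0.000171), with levels of 4.41, 4.48 and 4.47 in crypts and of 5.75, 6.43 and 7.71 in batch 1. Its 3 batch 2 adenomas, at 4.66, 5.05 and 4.57, were near the crypt levels and undetected.

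Nrp1, a co-receptor for secreted semaphorins and for VEGF, and Plxnd1, a semaphorin receptor, were both higher. Nrp1 (chr8:128358591-128505476) was at 5.28, 4.92 and 5.57 in wt crypts, at 7.94, 8.77 and 9.05 in batch 1 and at 6.81, 7.14 and 6.79 in batch 2 adenomas, at least 5.38-fold higher over all 9 arrays and 8.07-fold over batch 1 alone (adjusted p = 6.37e-08). 1 further Nrp1 probe also rose, and the dimmest, detected in no wt crypt, gave 0.22 ± 0.16 (adjusted p = 0.266). Plxnd1 was at 4.59, 4.49 and 4.62 in crypts, at 6.55, 6.97 and 7.15 in batch 1 and at 6.67, 7.22 and 7.22 in batch 2, at least 2.47-fold higher (adjusted p = 1.07e-07). Both moved with the endothelial and fibroblast marker sums given above, as did Robo4, Slit2 and Slit3, and the part of cell content in these rises was not tested. In the same arrays Nrp1, Robo4, Slit2 and Slit3 were lower in batch 2 ApcMin adenomas than in batch 1. The fibroblast sums were 2720 to 4900 in batch 2 against 8990 to 14600, and the endothelial sums 1770 to 1940 against 2410 to 4000. Mean signal also differed by batch, so batch and cell content cannot be told apart here. Plxnd1, Sema3f and Robo1 were not lower in batch 2. Markers of smooth muscle (6 of 6), myeloid cells (6 of 6), mast cells (4 of 4) and lymphatics (2 of 3) were also higher in ApcMin adenomas. Lymphatic sums were 955 to 1530 in batch 2 and 1230 to 1590 in batch 1. What part any cell type had in the rises of Sema3f and Robo1 was not tested either.

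The remaining changes were in genes that crypts already expressed. Sema7a (chr9:57939596-57962865), a membrane-anchored semaphorin that binds plexin C1 and integrins, was at 8.42, 8.67 and 8.54 in wt crypts, at 8.81, 9.45 and 9.70 in batch 1 and at 10.27, 10.51 and 9.80 in batch 2 adenomas, higher by 0.86 ± 0.20 (adjusted p = 0.0025). Sema5a (chr15:32244813-32696341), a transmembrane semaphorin with thrombospondin repeats, was at 8.30, 8.25 and 8.37, at 8.61, 8.91 and 9.04 and at 10.12, 10.41 and 9.77 in the same order, higher by 0.58 ± 0.15 (adjusted p = 0.00502). No adenoma array overlapped the crypts for either gene. Unc5b (chr10:60762594-60831581), a netrin receptor, fell by 0.85 ± 0.20 (adjusted p = 0.00333), from 8.07, 8.13 and 8.37 in crypts to 6.69, 7.37 and 7.86 in batch 1 and 6.96, 6.60 and 7.00 in batch 2. Sema4g, a transmembrane semaphorin, was at 9.69, 9.66 and 9.68 in crypts, at 8.53, 8.69 and 9.10 in batch 1 and at 8.19, 7.44 and 8.22 in batch 2, and fell by 0.92 ± 0.19 (adjusted p = 0.000994). Crypts and adenomas were fully apart for both. Sema4a, a transmembrane semaphorin also known from immune cells, was at 11.89, 11.86 and 11.75 in crypts against 10.82, 11.29 and 11.51 in batch 1 and 11.58, 11.38 and 11.78 in batch 2, and fell by 0.62 ± 0.17 (adjusted p = 0.00867). Its highest adenoma array overlapped the lowest crypt array, and the call was lost in 9 of the 12 fits that left out 1 array (any wt crypt, or any of ApcMin adenomas 4 to 9) and within batch 1 alone (adjusted p = 0.015), where the other 11 genes were called. The calls of Sema5a, Sema7a and Unc5b were each lost when certain single wt crypt arrays were left out: any of the 3 for Sema5a, replicates 1 and 3 for Sema7a and replicates 2 and 3 for Unc5b, with differences staying between 0.45 and 0.64, 0.71 and 0.98, and -0.96 and -0.54 over all alternatives.

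Guidance genes that missed the threshold included Plxnb2, a receptor of class 4 semaphorins, with a difference of 0.15 ± 0.19 (adjusted p = 0.515) and levels of 9.30, 9.57 and 9.56 in wt crypts against 9.26, 9.55 and 10.08 in batch 1 adenomas. Sema4b, at 10.92, 10.92 and 10.88 against 9.91, 10.87 and 11.12, gave -0.16 ± 0.21 (adjusted p = 0.555). For both, the crypt arrays lay within the adenoma range. Plxna2 gave 0.50 ± 0.23 (adjusted p = 0.0893), and Sema6a gave -0.84 ± 0.26 (adjusted p = 0.014), although another Sema6a probe passed at -0.65 ± 0.16 (adjusted p = 0.00375), detected in 1 wt crypt and no adenoma of batch 1.

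**Figure D2:**
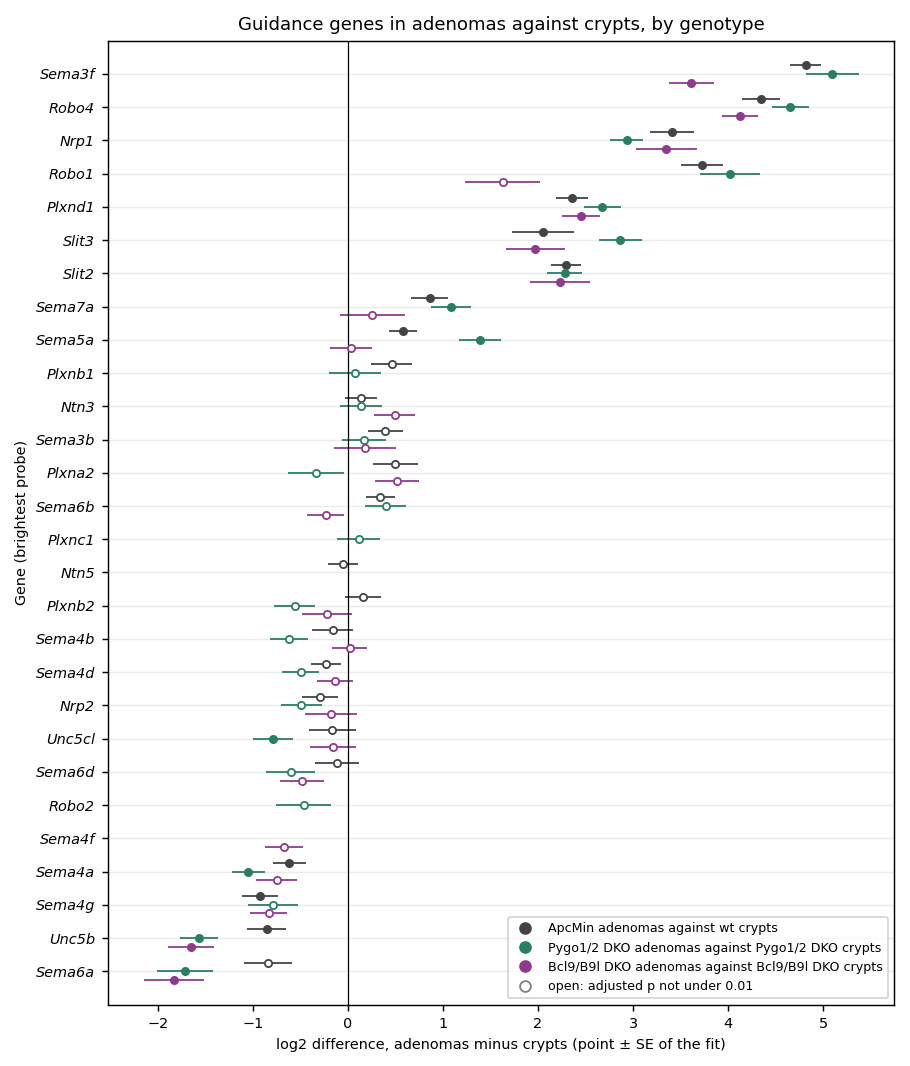
Log2 difference of each guidance gene between adenomas and crypts (point) with the SE of the limma fit (bar), for ApcMin, Pygo1/2 DKO and Bcl9/B9l DKO mice, with filled points past an adjusted p of 0.01. For genes undetected in crypts the point is the fitted difference from background, not a bound. Sema3f, Robo4, Nrp1, Plxnd1, Slit2 and Slit3 were higher in all 3 comparisons and Unc5b lower in all 3, while Robo1, Sema5a and Sema7a were called only in the first 2.

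Adenomas were next compared with crypts of the same knockout, which uses other arrays throughout. Between Pygo1/2 DKO adenomas and Pygo1/2 DKO crypts, 9 of 26 guidance genes were higher and 4 lower, against 21.7% higher and 20.4% lower of 18698 probes (42.1% in all). The 9 risers were the same genes as in ApcMin mice. Sema3f was at 4.85, 5.37 and 4.91 in the crypts and at 9.69, 9.54, 10.54, 10.24 and 10.68 in the adenomas, at least 17.2-fold higher (adjusted p = 1.36e-07). Robo1 was at 4.71, 4.58 and 4.47 in the crypts and at 7.64, 8.34, 9.28, 8.79 and 8.97 in the adenomas, at least 5.92-fold higher (adjusted p = 1.73e-06). Each of these probes was detected in every adenoma array and no crypt array. Sema5a rose by 1.39 ± 0.22 (adjusted p = 0.000264), from 7.92, 8.02 and 8.03 to 9.02, 9.54, 8.93, 9.57 and 9.80, and Sema7a by 1.08 ± 0.21 (adjusted p = 0.00118), from 9.50, 8.96 and 8.86 to 9.86, 10.08, 10.46, 10.10 and 10.47. The groups did not overlap for either gene.

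The vascular and Slit genes kept their direction in the same comparison. Robo4 was at 4.43, 4.53 and 4.50 in Pygo1/2 DKO crypts and at 8.81, 9.51, 9.25, 8.87 and 9.25 in the adenomas, at least 8.58-fold higher (adjusted p = 4.94e-08). Nrp1 was at 5.69, 6.00 and 5.65 against 8.98, 8.64, 8.69, 8.64 and 8.61, higher by 2.93 ± 0.17 (adjusted p = 2.16e-07). Slit3 was at 4.50, 4.58 and 4.41 against 7.05, 8.04, 7.44, 7.17 and 7.13, at least 2.51-fold higher (adjusted p = 2.03e-06). None of these groups overlapped. Plxnd1 was at 4.69, 4.99 and 4.62 against 7.25, 7.61, 7.64, 7.09 and 7.63, at least 2.65-fold higher (adjusted p = 9.68e-07). Slit2 was at 4.97, 4.88 and 5.44 against 7.51, 7.13, 7.34, 7.42 and 7.49, at least 2.53-fold higher (adjusted p = 2.16e-06). Neither pair of groups overlapped. A second, dimmer Robo4 probe, detected in 1 of the crypt arrays, did not rise. It was at 6.25, 5.42 and 5.04 in the crypts and at 5.01, 4.86, 5.34, 5.05 and 4.98 in the adenomas. The endothelial marker sum was 93.6 to 153 in these crypts and 2670 to 3890 in the adenomas, and the fibroblast sum 66.1 to 339 and 10800 to 17500, and their part in the rises was not tested.

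The genes lower in Pygo1/2 DKO adenomas were Unc5b, Sema6a, Sema4a and Unc5cl. Unc5b was at 8.41, 8.31 and 8.60 in the crypts and at 7.19, 7.20, 6.70, 6.61 and 6.67 in the adenomas, and fell by 1.57 ± 0.20 (adjusted p = 5.52e-05). Sema6a, a transmembrane ligand of A-type plexins, was at 6.32, 7.67 and 7.42 against 5.34, 5.78, 4.96, 5.56 and 5.48, and fell by 1.71 ± 0.29 (adjusted p = 0.000478). Both of its other probes passed in the same direction, each detected in 1 crypt array and no adenoma. Sema4a was at 11.87, 12.46 and 12.18 against 11.25, 11.11, 11.07, 11.09 and 11.08, and fell by 1.05 ± 0.17 (adjusted p = 0.000381). Unc5cl, at 5.47, 6.06 and 6.14 against 5.36, 4.94, 4.80, 5.14 and 5.26, was lower at least 1.37-fold, since no adenoma array detected it (adjusted p = 0.00719), and that call was lost under 10 of 13 alternatives, 6 of which left out 1 array: Pygo1/2 DKO crypts 2 or 3, or Pygo1/2 DKO adenomas 2, 3, 4 or 5. The groups were apart for all 4 genes. Sema4g, which fell in ApcMin adenomas, missed the threshold here with -0.79 ± 0.27 (adjusted p = 0.0253), at 9.38, 9.96 and 9.69 against 9.44, 9.30, 8.38, 8.84 and 8.48.

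Between Bcl9/B9l DKO adenomas and Bcl9/B9l DKO crypts, with 3 arrays a group, 6 of 24 guidance genes were higher and 2 lower, against 11.9% higher and 10.2% lower of 17875 probes (22.1% in all). The risers were Sema3f, Robo4, Nrp1, Plxnd1, Slit2 and Slit3, and the genes that fell were Unc5b and Sema6a. Robo4 was at 4.51, 4.79 and 4.51 in the crypts and at 8.88, 8.58 and 8.73 in the adenomas, at least 7.45-fold higher (adjusted p = 7.31e-06). Sema3f was at 5.23, 4.89 and 4.76 against 8.45, 8.34 and 8.94, at least 6.70-fold higher (adjusted p = 3.01e-05). The groups were apart for both genes. Nrp1 was at 5.97, 5.02 and 5.11 against 9.17, 8.35 and 8.64, higher by 3.35 ± 0.32 (adjusted p = 0.000174). Plxnd1 was at 4.64, 4.74 and 4.46 against 6.84, 7.21 and 7.15, at least 2.36-fold higher (adjusted p = 7.83e-05). Both receptors rose without overlap. Slit2 was at 5.22, 4.72 and 5.26 against 7.24, 6.76 and 7.90, at least 2.77-fold higher (adjusted p = 0.00108), and Slit3 at 4.52, 4.51 and 4.49 against 6.93, 5.76 and 6.76, at least 1.57-fold higher (adjusted p = 0.00182). The Slit3 call was lost without Bcl9/B9l DKO adenomas 3.

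Robo1 did not pass in the Bcl9/B9l DKO comparison. It was at 5.24, 4.42 and 4.65 in the crypts and at 5.53, 6.93 and 6.73 in the adenomas, with no overlap, and since no crypt array detected this probe its fold was at least 1.48 (adjusted p = 0.0128). Sema7a gave 0.26 and Sema5a 0.04, neither past the threshold. Unc5b was at 8.50, 8.91 and 8.33 in the crypts and at 6.68, 6.83 and 7.27 in the adenomas, and fell by 1.65 ± 0.24 (adjusted p = 0.00137). Sema6a was at 7.58, 6.44 and 7.22 against 5.19, 5.59 and 4.96, and fell by 1.83 ± 0.32 (adjusted p = 0.00298), and lost its call without Bcl9/B9l DKO crypts 3 or Bcl9/B9l DKO adenomas 3. Over the 3 comparisons of adenomas with crypts, which share no array, 6 of 23 genes tested in all were higher each time (26.1%, against 10.4% of 16867 probes) and 1, Unc5b, was lower each time (4.35%, against 8.63%). Of these 6, Plxnd1, Robo4, Sema3f, Slit2 and Slit3 were detected in no crypt array, so they entered the tests only through adenomas. The genes count by their brightest probe and the 16867 include dimmer probes, so the shares are not measured alike.

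The knockouts were then set against ApcMin adenomas, to ask what each co-factor contributes once Apc is lost. The 3 comparisons share the ApcMin arrays, so their values are given side by side only. In Pygo1/2 DKO adenomas none of 26 guidance genes passed, against 0.181% of 19380 probes called (0.0568% higher and 0.124% lower). Of the 26, 8 had an unadjusted p under 0.05, a level at which the share of all probes was not counted. The smallest p belonged to Unc5b, at 6.86, 7.50 and 7.96 (lowest, median and highest) in batch 1 ApcMin adenomas and at 7.09, 7.11, 6.63, 6.54 and 6.60 in Pygo1/2 DKO adenomas, a difference of -0.68 ± 0.18 (adjusted p = 0.0906). Sema7a, at 8.86, 9.47 and 9.72 against 9.64, 9.85, 10.23, 9.87 and 10.23, gave 0.53 ± 0.18 (adjusted p = 0.17), and Plxnb2, at 9.30, 9.57 and 10.09 against 9.37, 9.05, 8.80, 9.51 and 8.78, gave -0.55 ± 0.18 (adjusted p = 0.173). All of these overlapped. Sema3f gave 0.01 ± 0.19, with a 95% interval from -0.40 to 0.41, and Robo1 -0.17 ± 0.24, from -0.69 to 0.35.

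In Bcl9/B9l DKO adenomas, 2 of 25 guidance genes were lower and none higher, against 1.55% lower and 0.716% higher of 18990 probes, namely Sema3f and Robo1. Sema3f was at 9.56, 9.91 and 10.16 (lowest, median and highest) in the batch 1 ApcMin adenomas and at 8.28, 8.17 and 8.72 in the knockout, and fell by 1.51 ± 0.16 (adjusted p = 0.000157). Robo1 was at 7.96, 8.69 and 8.90 in the same ApcMin arrays and at 5.49, 6.86 and 6.68 in the knockout, and fell by 2.24 ± 0.29 (adjusted p = 0.000595). All 3 knockout arrays lay below all 9 ApcMin arrays for both genes. The second Sema3f probe fell by 1.71 ± 0.20 (adjusted p = 0.000312), and the dimmer second Robo1 probe, detected in all 3 knockout arrays, gave 0.11 ± 0.14. Within batch 1 alone Sema3f gave -1.52 (adjusted p = 0.000944) and Robo1 -2.28 (adjusted p = 0.00226). Next in order, and missing 0.01, were Sema6b, a transmembrane semaphorin, at 5.87, 6.32 and 6.53 against 5.73, 5.33 and 5.75, with -0.68 ± 0.16 (adjusted p = 0.0268), and Sema7a with -0.75 ± 0.21 (adjusted p = 0.0462). Robo4, Nrp1, Plxnd1 and Slit2 gave -0.30, -0.18, -0.04 and -0.09, none past the threshold. The fibroblast sum of the knockout arrays was 9640 to 13000, within the range of the batch 1 ApcMin adenomas, their endothelial sum was 2440 to 2620, at the lower end of that range, and none of these markers passed. Of lymphocyte, mast cell, lymphatic and goblet markers 3 of 5, 3 of 4, 1 of 3 and 1 of 5 were lower, and of enteroendocrine markers 3 of 7 were higher. Enteric neuron sums were 107 to 197 in the knockout against 190 to 554 in batch 1 ApcMin adenomas, with no marker called. The part of these shifts was not tested.

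QKO adenomas had 4 of 27 guidance genes lower and none higher, against 3.12% lower and 1.29% higher of 19189 probes: Sema3f, Robo1, Sema5a and Sema7a. Sema3f was at 10.29, 10.32 and 10.09 in the batch 2 ApcMin adenomas and at 8.07, 7.64 and 7.91 in QKO adenomas, and fell by 2.36 ± 0.17 (adjusted p = 4.39e-06). Robo1 was at 8.81, 9.40 and 9.07 against 7.03, 6.57 and 7.32, and fell by 2.12 ± 0.26 (adjusted p = 0.000157). Sema5a was at 9.78, 10.05 and 9.44 against 8.42, 8.59 and 8.53, and fell by 1.24 ± 0.17 (adjusted p = 0.000416). Sema7a was at 9.92, 10.15 and 9.47 against 8.84, 8.80 and 8.11, and fell by 1.26 ± 0.25 (adjusted p = 0.00613). Within batch 2 the QKO arrays lay below the ApcMin arrays for all 4 genes. For Sema3f and Robo1 they also lay below the 6 batch 1 ApcMin adenomas normalized with them. Those 6 were at 8.32 to 8.72 for Sema5a, a range that holds the QKO arrays. For Sema7a they were at 8.50 to 9.37, overlapping the QKO arrays. The falls of Sema5a and Sema7a thus rest on the level of the 3 batch 2 ApcMin adenomas. A fit to the 6 batch 2 arrays alone gave -2.30, -2.03, -1.20 and -1.22 for Sema3f, Robo1, Sema5a and Sema7a, with adjusted p-values of 0.00014, 0.000864, 0.00347 and 0.0137, so Sema7a missed 0.01 there.

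The probes of 1 gene did not always agree in QKO adenomas. The second Sema3f probe fell by 2.27 ± 0.17 and a further Sema5a probe fell by 1.01 ± 0.17 (adjusted p = 0.00216), whereas the dimmest Sema5a probe gave -0.0041 and the second Robo1 probe, detected in no QKO array, gave -0.01, and the second Sema7a probe, also detected in none, gave -0.80 ± 0.29 (adjusted p = 0.104). The Sema7a call was also lost without ApcMin adenomas 4 or 6 or without QKO adenomas 2 or 3, with adjusted p-values up to 0.0374. Plxnd1, Robo4 and Nrp1 gave -0.82 ± 0.19 (adjusted p = 0.0161), -0.63 ± 0.22 (adjusted p = 0.0959) and -0.58 ± 0.24 (adjusted p = 0.152). QKO adenomas also had lower fibroblast sums than batch 2 ApcMin adenomas, 1190 to 2000 against 2720 to 4900, with 4 of 10 markers called, lower lymphatic sums, 196 to 380 against 955 to 1530, lower endothelial sums, 1250 to 1550 against 1770 to 1940 with none called, and lower goblet sums, 10000 to 12200 against 26200 to 30800. Of mast cell markers 3 of 4 were lower and of enteroendocrine markers 3 of 7 higher. Lower too were 3 of 5 goblet, 2 of 3 lymphatic, 1 of 6 myeloid and 1 of 4 enteric neuron markers. The enteric neuron sums were 101 to 135 in QKO against 356 to 557 in batch 2 ApcMin adenomas. What part these shifts had in the falls was not tested.

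**Figure D3:**
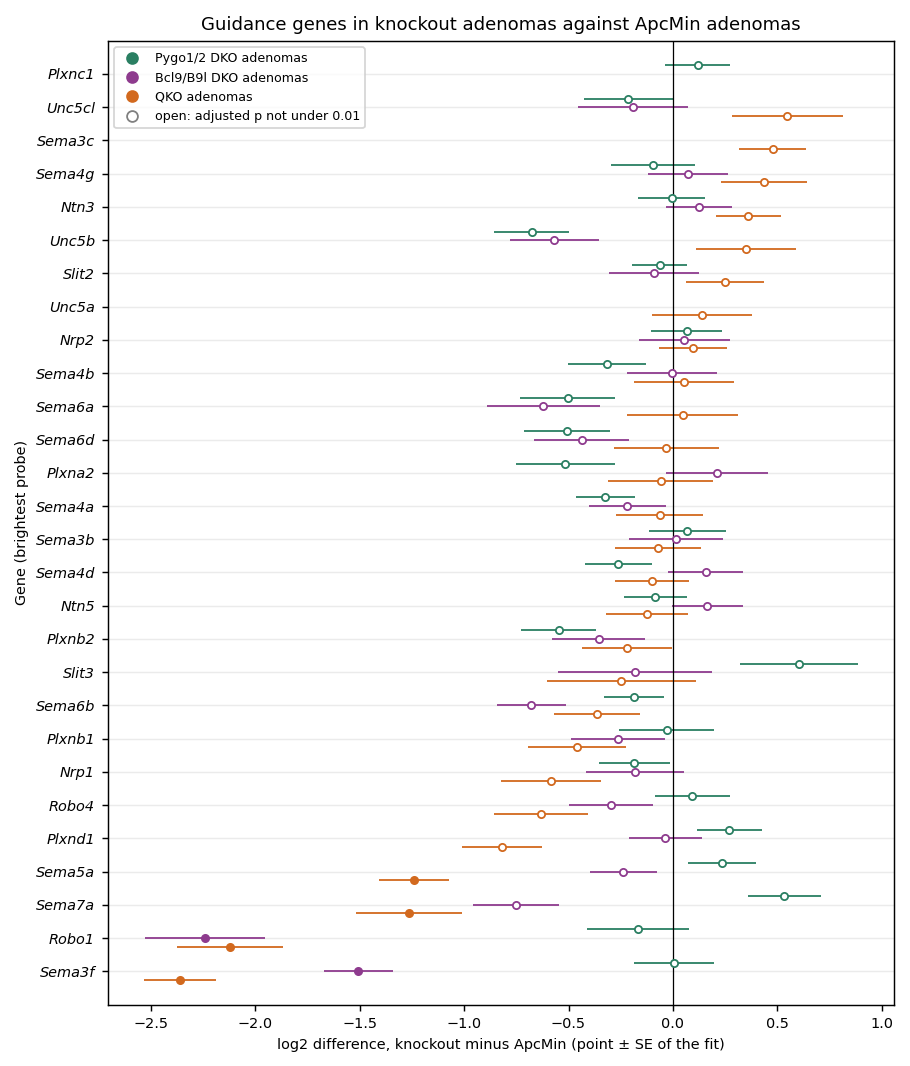
Log2 difference of each guidance gene between knockout and ApcMin adenomas (point) with the SE of the limma fit (bar), ordered by the QKO difference, with filled points past an adjusted p of 0.01. Sema3f and Robo1 were lower in Bcl9/B9l DKO and QKO adenomas, Sema5a and Sema7a in QKO adenomas, and no point of Pygo1/2 DKO adenomas passed.

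Promoter windows were read for the genes that fell in QKO adenomas, from the 250 bases before to the 50 bases after an annotated start (RefSeq, GRCm38.p6, 5′ to 3′ on the gene's strand). Windows were at hand for 27 of the 30 genes (38 windows), not for Sema3b, Sema3f or Sema6a. Those of Robo1 (chr16:72662899-72663198, + strand), Sema5a (chr15:32244563-32244862, + strand) and Sema7a (chr9:57939862-57940161, + strand) are shown because these genes fell together, with capitals marking GC boxes, GGGCGG on either strand, some of which overlap.
Robo1: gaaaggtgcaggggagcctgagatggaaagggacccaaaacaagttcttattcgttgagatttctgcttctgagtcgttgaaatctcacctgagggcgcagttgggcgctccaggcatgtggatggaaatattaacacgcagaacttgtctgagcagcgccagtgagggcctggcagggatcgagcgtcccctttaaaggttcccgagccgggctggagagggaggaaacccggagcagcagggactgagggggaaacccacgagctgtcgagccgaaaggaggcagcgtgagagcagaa
Sema5a: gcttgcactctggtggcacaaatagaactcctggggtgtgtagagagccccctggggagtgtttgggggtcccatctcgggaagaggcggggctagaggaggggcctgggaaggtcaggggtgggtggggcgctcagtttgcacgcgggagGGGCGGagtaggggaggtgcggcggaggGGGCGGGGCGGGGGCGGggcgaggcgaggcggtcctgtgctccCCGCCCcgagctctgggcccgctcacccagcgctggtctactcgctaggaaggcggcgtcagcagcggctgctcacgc
Sema7a: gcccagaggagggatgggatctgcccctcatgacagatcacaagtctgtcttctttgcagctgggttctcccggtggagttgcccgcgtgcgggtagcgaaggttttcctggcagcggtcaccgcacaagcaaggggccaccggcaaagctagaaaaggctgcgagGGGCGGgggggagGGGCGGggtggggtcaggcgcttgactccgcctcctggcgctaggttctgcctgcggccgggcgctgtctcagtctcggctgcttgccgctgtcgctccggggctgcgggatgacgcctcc

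The sequence CTTTGAT, a site that the TCF/LEF partners of β-catenin bind, occurred on either strand in none of these 3 windows. Among the windows of guidance genes it was found in 1 of 38, that of Nrp2, against 3.73% of all 32851 windows. The shorter TCF/LEF core CTTTG numbered 2 in Sema7a and 0 in Robo1 and Sema5a, and 53.9% of all windows held it. GC boxes numbered 5 in Sema5a, 2 in Sema7a and 0 in Robo1, and 35.7% of all windows held 1 or more. The GC content was 57.0% for Robo1, 71.3% for Sema5a and 67.3% for Sema7a, with a median of 52.7% over all windows. A window of this length says nothing of sites farther away. The Robo1 window lies at an annotated start far inside the gene, and no window was read at the outer start of its span.

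Comparing the double knockouts with each other, 1 of 25 guidance genes passed, against 0.774% of 18737 probes called and 0.560% lower. Sema7a was at 9.93, 10.15, 10.52, 10.16 and 10.52 in Pygo1/2 DKO adenomas and at 8.75, 9.21 and 8.97 in Bcl9/B9l DKO adenomas, and in the latter Sema7a fell by 1.28 ± 0.20 (adjusted p = 0.00922). The groups did not overlap, yet the call was lost in 7 of the 8 fits that left out 1 array, all but the one without Pygo1/2 DKO adenomas 1. Sema3f and Robo1 gave -1.49 ± 0.28 (adjusted p = 0.0228) and -2.09 ± 0.40 (adjusted p = 0.0237), which missed 0.01, also without overlap. Sema3f was at 9.76, 9.62, 10.58, 10.30 and 10.72 against 8.60, 8.49 and 9.04, and Robo1 at 7.81, 8.48, 9.37, 8.91 and 9.08 against 5.75, 7.18 and 7.00. Every Bcl9/B9l DKO array was the lower for both.

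Whether QKO adenomas departed from the sum of the double knockout changes was tested directly, as the QKO change minus the changes of both double knockouts. None of 28 guidance genes passed, against 0.188% of 20202 probes (0.0891% above and 0.0990% below the sum). Of the 28, 8 had an unadjusted p under 0.05, again without a count of all probes at that level. The smallest p belonged to Unc5b, with 1.59 ± 0.40 (adjusted p = 0.0555), whose own differences against ApcMin were -0.68, -0.57 and 0.35 in Pygo1/2 DKO, Bcl9/B9l DKO and QKO adenomas. For Sema5a the value was -1.23 ± 0.34 (adjusted p = 0.0799) and for Plxnd1 -1.07 ± 0.33 (adjusted p = 0.118). Sema3f gave -0.87, with a 95% interval from -1.73 to -0.0017 and an adjusted p of 0.366, and Robo1 0.26, from -1.02 to 1.54.

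**Figure D4:**
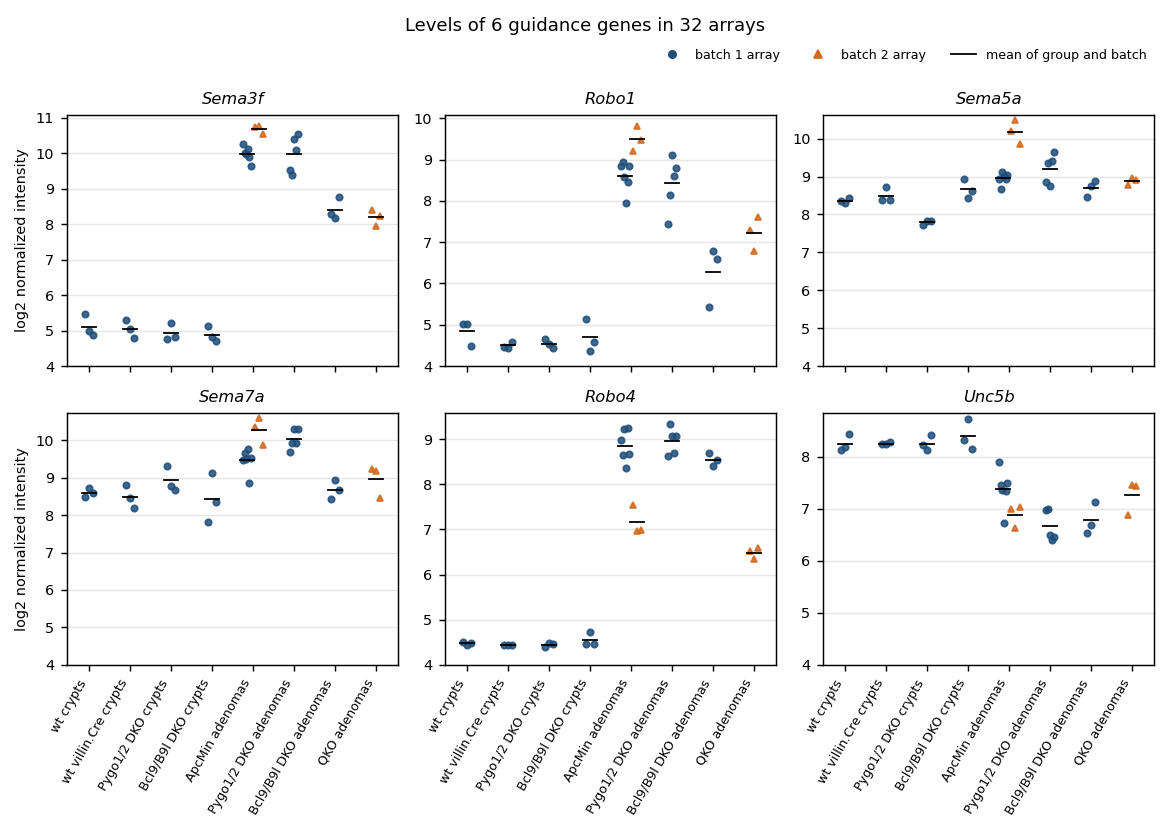
Log2 normalized intensity of 6 guidance genes in each of the 32 arrays, all normalized together, by group, with circles for batch 1, triangles for batch 2 and a line at the mean of each group and batch. The y axes start at 4 and differ between panels. Sema3f and Robo1 sit near 5 in all 12 crypt arrays, highest in ApcMin and Pygo1/2 DKO adenomas and in between in Bcl9/B9l DKO and QKO adenomas.

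The plot shows levels by array with all 32 arrays normalized together and no adjustment for batch. QKO adenomas were in batch 2 and both double knockouts in batch 1, so the order of QKO among them cannot be told apart from batch. Sema3f ran from 4.69 to 5.45 in the 12 crypt arrays, from 7.95 to 8.40 in QKO, from 8.16 to 8.75 in Bcl9/B9l DKO, from 9.37 to 10.53 in Pygo1/2 DKO, and from 9.63 to 10.24 (batch 1) and 10.52 to 10.77 (batch 2) in ApcMin adenomas. Neighbouring groups overlapped between QKO and Bcl9/B9l DKO and between Pygo1/2 DKO and batch 1 ApcMin adenomas, while a gap lay between these pairs. ApcMin adenomas had more Sema3f in batch 2, so the overlap of QKO with Bcl9/B9l DKO does not show equal levels. Robo1 was at 4.37 to 5.15 in the crypts, at 5.43 to 6.78 in Bcl9/B9l DKO, at 6.79 to 7.60 in QKO, at 7.44 to 9.11 in Pygo1/2 DKO, and at 7.94 to 8.93 (batch 1) and 9.20 to 9.81 (batch 2) in ApcMin adenomas. Here QKO overlapped Pygo1/2 DKO, which batch separates from it. For Sema7a the Pygo1/2 DKO adenomas, at 9.69 to 10.31, lay above all 12 crypt arrays, the highest of which was at 9.33, and above QKO and Bcl9/B9l DKO adenomas, which overlapped the crypts. Batch 1 ApcMin adenomas, at 8.87 to 9.78, also overlapped the crypts, and those of batch 2, at 9.885 to 10.59, did not. Sema5a was at 7.72 to 8.93 in the crypts, and the ranges of all 3 knockout adenoma groups overlapped that range. So did batch 1 ApcMin adenomas, at 8.67 to 9.11, whereas those of batch 2 lay above it, at 9.85 to 10.49.

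In crypts without tumours no guidance gene passed at an adjusted p under 0.05. Of 17 tested between Pygo1/2 DKO and wt villin.Cre crypts none was called, against 0.267% of 15375 probes, and 2 had an unadjusted p under 0.05. Sema5a came nearest, at 8.41, 8.80 and 8.43 in wt villin.Cre crypts and 7.70, 7.82 and 7.82 in Pygo1/2 DKO crypts, a difference of -0.77 ± 0.16 (adjusted p = 0.085) without overlap. Nrp2, at 5.16, 5.32 and 5.20 against 5.47, 5.54 and 5.71, gave 0.35 ± 0.15, and Unc5cl, at 5.22, 5.10 and 5.09 against 5.21, 5.69 and 5.76, gave 0.42 ± 0.18, both near background. Of 15 genes tested between Bcl9/B9l DKO and wt villin.Cre crypts none was called, against 0.0381% of 15750 probes, and 1 had an unadjusted p under 0.05, Sema6a, at 6.33, 5.90 and 6.02 against 7.36, 6.15 and 6.97, with 0.74 ± 0.30 (adjusted p = 1). The groups overlapped. Plxna2, at 8.53, 8.42 and 8.32 against 8.82, 8.72 and 8.77, gave 0.35 ± 0.15, and Sema4f, at 5.24, 5.10 and 5.30 against 5.34, 5.41 and 5.58, gave 0.22 ± 0.16.

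Between wt villin.Cre and wt crypts none of 15 guidance genes passed, against 0.0386% of 15528 probes (0.0129% higher and 0.0258% lower), and none had an unadjusted p under 0.05. Differences ran from -0.37 to 0.20. The smallest p-values were those of Sema6a, at 6.41, 5.97 and 6.10 in villin.Cre against 6.49, 6.91 and 6.19 in wt crypts, Sema4g, at 9.90, 9.70 and 9.70 against 10.00, 9.97 and 9.99, and Sema4b, at 11.17, 11.24 and 11.03 against 11.32, 11.31 and 11.28, which gave -0.37 ± 0.21, -0.22 ± 0.13 and -0.16 ± 0.13. Sema4g and Sema4b did not overlap, Sema6a did. The genes undetected in crypts, Sema3f among them, could not be compared there.

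Partners of these receptors were read from a list of 74 co-receptors, effectors and other guidance genes, of which 52 were measured. In ApcMin adenomas against wt crypts 11 of 48 were higher and 8 lower, against 18.4% higher and 20.0% lower of all probes, with a median of -0.12 against -0.08 over all probes. The smallest p-values were those of Gpc1, glypican-1, a heparan sulphate proteoglycan that can bind Slits, the cofilin kinase Limk1, the signalling adaptor Tyrobp and the tyrosine kinase Fes. All 4 were undetected in the 3 wt crypts, and over all 9 ApcMin arrays they were at least 22.7-fold (adjusted p = 1.03e-09), 1.95-fold, 2.39-fold and 2.63-fold higher. In Pygo1/2 DKO adenomas against their crypts 12 of 48 were higher and 6 lower, against 21.7% and 20.4% of all probes, and in Bcl9/B9l DKO mice 7 of 44 and 4, against 11.9% and 10.2%. Mical1, an actin-oxidizing enzyme downstream of plexins, fell by 2.44 ± 0.21 in the former and fell by 2.73 ± 0.28 in the latter, and Dpysl3, a collapsin response mediator, undetected in both groups of crypts, was at least 2.08-fold and 5.18-fold higher.

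Among the partners Gpc1 had ranges like those of Sema3f. It was at 4.68, 4.84 and 5.37 (lowest, median and highest) in wt crypts, at 9.62, 9.99 and 10.67 in batch 1 and 10.50, 10.62 and 10.89 in batch 2 ApcMin adenomas, at 9.22, 9.57 and 9.89 in Pygo1/2 DKO, at 7.89, 8.30 and 8.83 in Bcl9/B9l DKO and at 8.04, 8.22 and 8.80 in QKO adenomas. It fell by 1.61 ± 0.23 (adjusted p = 0.00113) in Bcl9/B9l DKO and fell by 2.21 ± 0.25 (adjusted p = 8.87e-05) in QKO adenomas against ApcMin, and was the 1 partner of 48 called in the former, where 2.27% of all probes were. In QKO adenomas, 2 of 48 partners were lower and 1 higher, against 3.12% lower and 1.29% higher of all probes. Besides Gpc1, Fes fell by 1.00 ± 0.17 (adjusted p = 0.00229), and Rnd2, a small GTPase that binds plexins, was higher by 1.20 ± 0.25 (adjusted p = 0.0085), whereas it fell by 1.83 ± 0.20 in ApcMin adenomas against wt crypts. None of the partners passed in Pygo1/2 DKO adenomas, between the double knockouts, in the test of departure from the summed changes or in crypts.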

How the data were processed

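The 32 RNA samples were hybridized to Illumina MouseWG-6 v2.0 chips. The authors exported probe intensity values and detection p-values with GenomeStudio 2011.1 without background correction. The deposited log2 values, which the authors obtained by variance stabilization followed by quantile normalization, served as an alternative. The methods also name ComBat for the batches, and the ApcMin batch means of the deposited values differed by a median of 0.0101, against 0.36 here. The authors' fits used limma 3.34.9.

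Here each comparison's arrays were background-corrected, quantile-normalized and log2-transformed with neqc (offset 16) in limma 3.58.1 (R 4.3.3). A probe was kept if any array of the comparison detected it (p under 0.01). Genes undetected in crypts thus entered the tissue comparisons only through adenomas. Guidance genes count by their brightest probe, whereas shares over all probes count every probe. No share over all probes was taken at an unadjusted p under 0.05. Group means, with a batch term where needed, were fitted with empirical Bayes. Thresholds on adjusted p were 0.01 in adenomas and 0.05 in crypts. Probe names came from the platform annotation (17608 of 20824 with 1 symbol, 9 with several, 3207 with none), and all 30 genes matched RefSeq by Entrez identifier. The scripts were tested on simulated data. Arrays give no counts, so their number limits the precision.

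Members, lists and rules were chosen with earlier results of these data known. Per-array values go to genes past the threshold and, where fewer than 3 passed, to those with the smallest p. In adenomas against crypts they go to the 12 largest changes and up to 3 well-detected genes that missed. Also named are the targeted genes, up to 4 partner genes per comparison and cell type markers. A printed fold bound sets the bright group's mean, over all its arrays unless batch 1 is named, against a floor for the dim group. For ApcMin adenomas these arrays include batch 2, whereas all wt crypts were in batch 1. The floor averages, array by array, the probe's value or the lowest detected signal, whichever was higher. Alternatives were plain log2 values, the deposited values, no filter, joint normalization, a replicate block, a single batch, ComBat and leaving out 1 array. Same-numbered samples correlated between -0.458 and 0.483, and in no comparison did every pair exceed 0.1.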

Additional observations from a re-analysis of the deposited data

Results flagged for a closer look

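In 28 sets of 4 to 10 arrays of 1 group, 3 held an array standing apart from the rest, where chance flags about 1 in 20. Pygo1/2 DKO adenomas 1 had a Nrp1 level of 8.80, above the next at 8.50, and a Sema4a level of 11.1, above the next at 10.96. ApcMin adenomas 7 had a Sema7a level of 8.87, below the next at 9.48. The change of Sema7a differed between the double knockouts, the difference of Bcl9/B9l DKO minus Pygo1/2 DKO adenomas being -1.28 (limma, adjusted p = 0.00922).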

How the results depend on the processing

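Of 646 refits of single calls, 585 kept the call, 61 lost it and 0 changed direction. Lost calls were mostly those of Sema4a, Sema7a, Unc5cl, Sema6a and Sema5a. In Bcl9/B9l DKO against ApcMin adenomas, 2 guidance genes were called, 0 with a replicate block and 4 after ComBat, and Sema3f and Robo1 had adjusted p-values of 0.0416 and 0.0402 with the block. In QKO against ApcMin adenomas, 4 were called and 8 after ComBat. Between the double knockouts, 1 was called, 3 after joint normalization and 0 with the deposited values, without the filter or with a replicate block. For the departure from summed changes, 0 were called, 1 after joint normalization and 3 after ComBat. In Pygo1/2 DKO crypts 0 were called and 1 with the deposited values. The causes were not tested. Leaving out 1 array gave 8 to 13 calls against wt crypts in ApcMin adenomas (8 without wt crypts 3), 12 to 14 and 6 to 9 in the DKO tissue comparisons, 2 in Bcl9/B9l DKO, 3 to 4 in QKO and 0 to 1 between the double knockouts. The numbers of same-numbered samples mark no pairing, and no block could be fitted for QKO.

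Counts over all probes moved more. In the order joint normalization, replicate block, ComBat and no filter, the 35 probes called in Pygo1/2 DKO against ApcMin adenomas became 239, 9, 207 and 18 (19 with the deposited values), the 431 in Bcl9/B9l DKO became 1117, 0, 1171 and 212, and the 38 that departed from summed changes became 273, 5, 1240 and 11 (21 with plain log2 values, 22 with a stricter filter). The 846 in QKO became 1352 after joint normalization and 2983 after ComBat. The 145 between the double knockouts became 598 after joint normalization, 89 with plain log2 values, 51 with the deposited values, 31 without the filter and 44 with the block. In adenomas against crypts the block gave 3550 in place of 7283, 4826 in place of 7870 and 2633 in place of 3951, the last 6939 after joint normalization. With all arrays kept, the 41 in Pygo1/2 DKO crypts ranged from 14 to 311, the 6 in Bcl9/B9l DKO crypts up to 55, and the 6 for villin.Cre from 0 to 10. With 1 array left out they ran from 9 to 39, from 5 to 11 and from 0 to 20. Leaving out 1 array gave 19 to 57 in Pygo1/2 DKO, 205 to 459 in Bcl9/B9l DKO and 434 to 880 in QKO against ApcMin adenomas, 73 to 156 between the double knockouts, 8 to 63 for the departure and 2291 to 3876 in the Bcl9/B9l DKO tissue comparison.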
